A study of Mus musculus with 24 samples.

Results

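Of the 14 sodium channel subunit genes that the gene list of the count tables names, 8 were followed here across the neurons, precursors and other cells of the mouse motor cortex and dorsal striatum. They comprised 5 genes of pore-forming subunits, Scn1a (Nav1.1), Scn2a (Nav1.2), Scn3a (Nav1.3), Scn8a (Nav1.6) and Scn9a (Nav1.7), and 3 genes of auxiliary beta subunits, Scn2b, Scn3b and Scn4b. The members were given by symbol, with earlier results of these data known, and the table held 54235 features in all. The study asked how motor learning changes transcripts in the motor cortex and the dorsal striatum. Mice carried an inducible Cre and the Ai9 reporter allele, whose tdTomato is switched on by Cre. Motor cortex came from Fos-CreER::Ai9 mice and dorsal striatum from Arc-CreER::Ai9 mice, so that region and driver line cannot be told apart. Trained mice practised reaching with a forelimb for 2 days (early) or 8 days (late), and control mice were not trained. All mice, controls included, received 4-hydroxytamoxifen, which lets the Cre act in cells with an active Fos or Arc promoter, and tissue was taken 3 days later. Each pool held 2 mice, and each region and stage had 2 pools, 12 in all. Hemispheres were separate libraries, contralateral and ipsilateral in trained pools and left and right in control pools.

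Voltage-gated sodium channels carry the inward current of the rising phase of the action potential. A pore-forming alpha subunit makes the channel, and beta subunits, single-pass membrane proteins of the immunoglobulin superfamily, change its gating and its place in the membrane. Nav1.1 is known for fast-spiking interneurons, Nav1.2 for excitatory neurons and young axons, Nav1.3 for the developing brain, Nav1.6 for the mature axon initial segment and nodes of Ranvier, and Nav1.7 for sensory neurons. The beta4 subunit, from Scn4b, is known for resurgent sodium current.

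The 23 libraries with counts held 127901 cell barcodes, and 98612 cells were kept, 47985 from motor cortex and 50627 from striatum. Libraries totalled 5260446 to 30470621 unique molecular identifiers (UMIs, one per captured transcript), and the median kept cell had 2048 to 5725 by library. Levels are given as CPM, the UMIs of a gene in 1e+06 UMIs of the cells of 1 type in 1 pool. Cell types were found by clustering without the sodium channel genes and were named from markers, so that each name below stands for cells resembling that type (parvalbumin-like, D1-like and so on). The defining markers were present in the named neurons: Pvalb was at 2201 CPM in the motor cortex parvalbumin group and 721.5 CPM in the striatal one, although only 2 of 6 markers of the layer 5 intratelencephalic group were highest there. Barcodes shared between libraries split the pools into barcode class A (the pools numbered 1 of motor cortex control and late and of striatum control and late) and barcode class B (the other 8). The labels name v2 or v3 kits without saying which library had which, and put class A on flow cells of its own, so that kit, flow cell and class cannot be told apart, and class A holds no early pool. Libraries shared 1.36 barcodes per 1e+06 pairs of barcodes within class A, 0.259 within class B and 0.0247 between them. Some members differed between the classes: the level in class B over that in class A was 1.70 to 2.52 for Scn1a and 1.46 to 2.31 for Scn2a, but 0.603 to 1.04 for Scn2b, over interneurons, projection neurons and oligodendrocyte precursors. Late replicate 1 of the striatum stood apart from the other 5 striatal pools in markers of spiny neurons. The 10 spiny markers summed to 1017 CPM in its microglia, which should lack them, against 113 to 214 CPM in the others. In interneurons that pool, at 730 CPM, lay within the range of the striatal pools, 572.5 to 746 CPM. Cortical interneurons summed to 467 to 607.6 CPM, so that in interneurons the sum does not tell RNA of spiny neurons from their own. Whether free RNA of spiny neurons gave the markers in microglia was not tested.

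Of the members, 4 lie in a row on chromosome 2, in the order Scn3a, Scn2a, Scn1a and Scn9a (GENCODE M21, GRCm38). Scn3a spans chr2:65457118-65567627 on the minus strand and Scn2a chr2:65620771-65767447 on the plus strand, 53143 bases apart. Scn1a (chr2:66270778-66440840) and Scn9a (chr2:66480080-66634962) both lie on the minus strand, 39239 bases apart, and 503330 bases separate Scn1a from Scn2a. Scn8a stands alone at chr15:100869858-101045938. The 3 beta subunit genes lie on chromosome 9, Scn3b at chr9:40269217-40291618, Scn2b at chr9:45117782-45130070 and Scn4b at chr9:45138395-45154152, all on the plus strand, with 8324 bases between Scn2b and Scn4b. Other gene models overlap Scn1a, Scn3a, Scn9a, Scn2b and Scn3b, and whether counting used the strand is not given in the sources used here. The sequences just upstream of 3 of the chromosome 2 neighbours are shown because these genes of 1 cluster had different cell type patterns (RefSeq, GRCm38.p6, each 5′ to 3′ on the gene's own strand, with CG in capitals).
Scn1a, chr2:66440841-66441087, minus strand: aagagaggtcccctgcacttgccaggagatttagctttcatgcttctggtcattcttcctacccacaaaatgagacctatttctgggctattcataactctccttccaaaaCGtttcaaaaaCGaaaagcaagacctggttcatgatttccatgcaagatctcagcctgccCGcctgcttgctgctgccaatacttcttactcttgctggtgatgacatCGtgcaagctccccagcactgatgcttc
Scn2a, chr2:65620519-65620768, plus strand: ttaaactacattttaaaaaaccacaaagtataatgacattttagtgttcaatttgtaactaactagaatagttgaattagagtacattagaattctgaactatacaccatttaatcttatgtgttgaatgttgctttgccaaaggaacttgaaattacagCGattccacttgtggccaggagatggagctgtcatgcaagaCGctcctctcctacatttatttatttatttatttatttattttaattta
Scn9a, chr2:66634963-66635212, minus strand: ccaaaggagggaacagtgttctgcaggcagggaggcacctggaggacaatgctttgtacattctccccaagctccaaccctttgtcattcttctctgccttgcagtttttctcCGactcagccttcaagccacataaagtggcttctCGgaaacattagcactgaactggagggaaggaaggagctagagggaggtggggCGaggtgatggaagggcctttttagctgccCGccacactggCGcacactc
The Scn2a stretch held 29.6% G and C and 2 CG, the Scn1a stretch 47.4% and 4, and the Scn9a stretch 54.4% and 5. RefSeq promoter windows of 300 bases matched 6 of the 8 members, with 8 windows. Over the whole window, G and C and the count of CG were 47.3% and 5 for Scn1a and 57.3% and 9 for Scn9a. For Scn2a they were 33.0% and 3 at the first start and 47.7% and 9 at the second. The median window of 32851 had 52.7% G and C and 7 CG. Both strands of the members' windows were searched for GGGCGG (in 35.7% of all windows), TGACGTCA (1.79%), TGANTCA (7.81%) and the RE1 motif (0.244%), with no match. TATAAA (13.6% of all windows) was found once, before the second start of Scn2a. CANNTG (72.3%) was found in the windows of Scn1a, Scn2a, Scn2b, Scn8a and Scn9a and in none of Scn4b.

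Of the types with enough cells to fit, spiny projection neurons of the striatum had the highest summed level of the 8 genes, 1853 ± 349 CPM in D1 and 1782 ± 311 CPM in D2 neurons (SD, n = 6 pools). The other such neuron types lay between 1007 ± 228 CPM (striatal somatostatin) and 1471 ± 246 CPM (Rorb layer 4/5). Below the neurons came oligodendrocyte precursors, at 371 ± 66.7 CPM in cortex and 370 ± 107 CPM in striatum, and striatal neuroblasts, at 276 ± 58.8 CPM. Cycling progenitors summed to 56.3 ± 15.3 CPM and cortical microglia to 22.1 ± 10.7 CPM. In data of this kind fewer transcripts per cell and a different total per cell cannot be told apart, since each level is a share of the cell's RNA. Capture of the 3′ end differs between genes, so that the order of genes within a cell type, also as shares of UMIs, need not be the order of their transcripts.

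**Figure D1:**
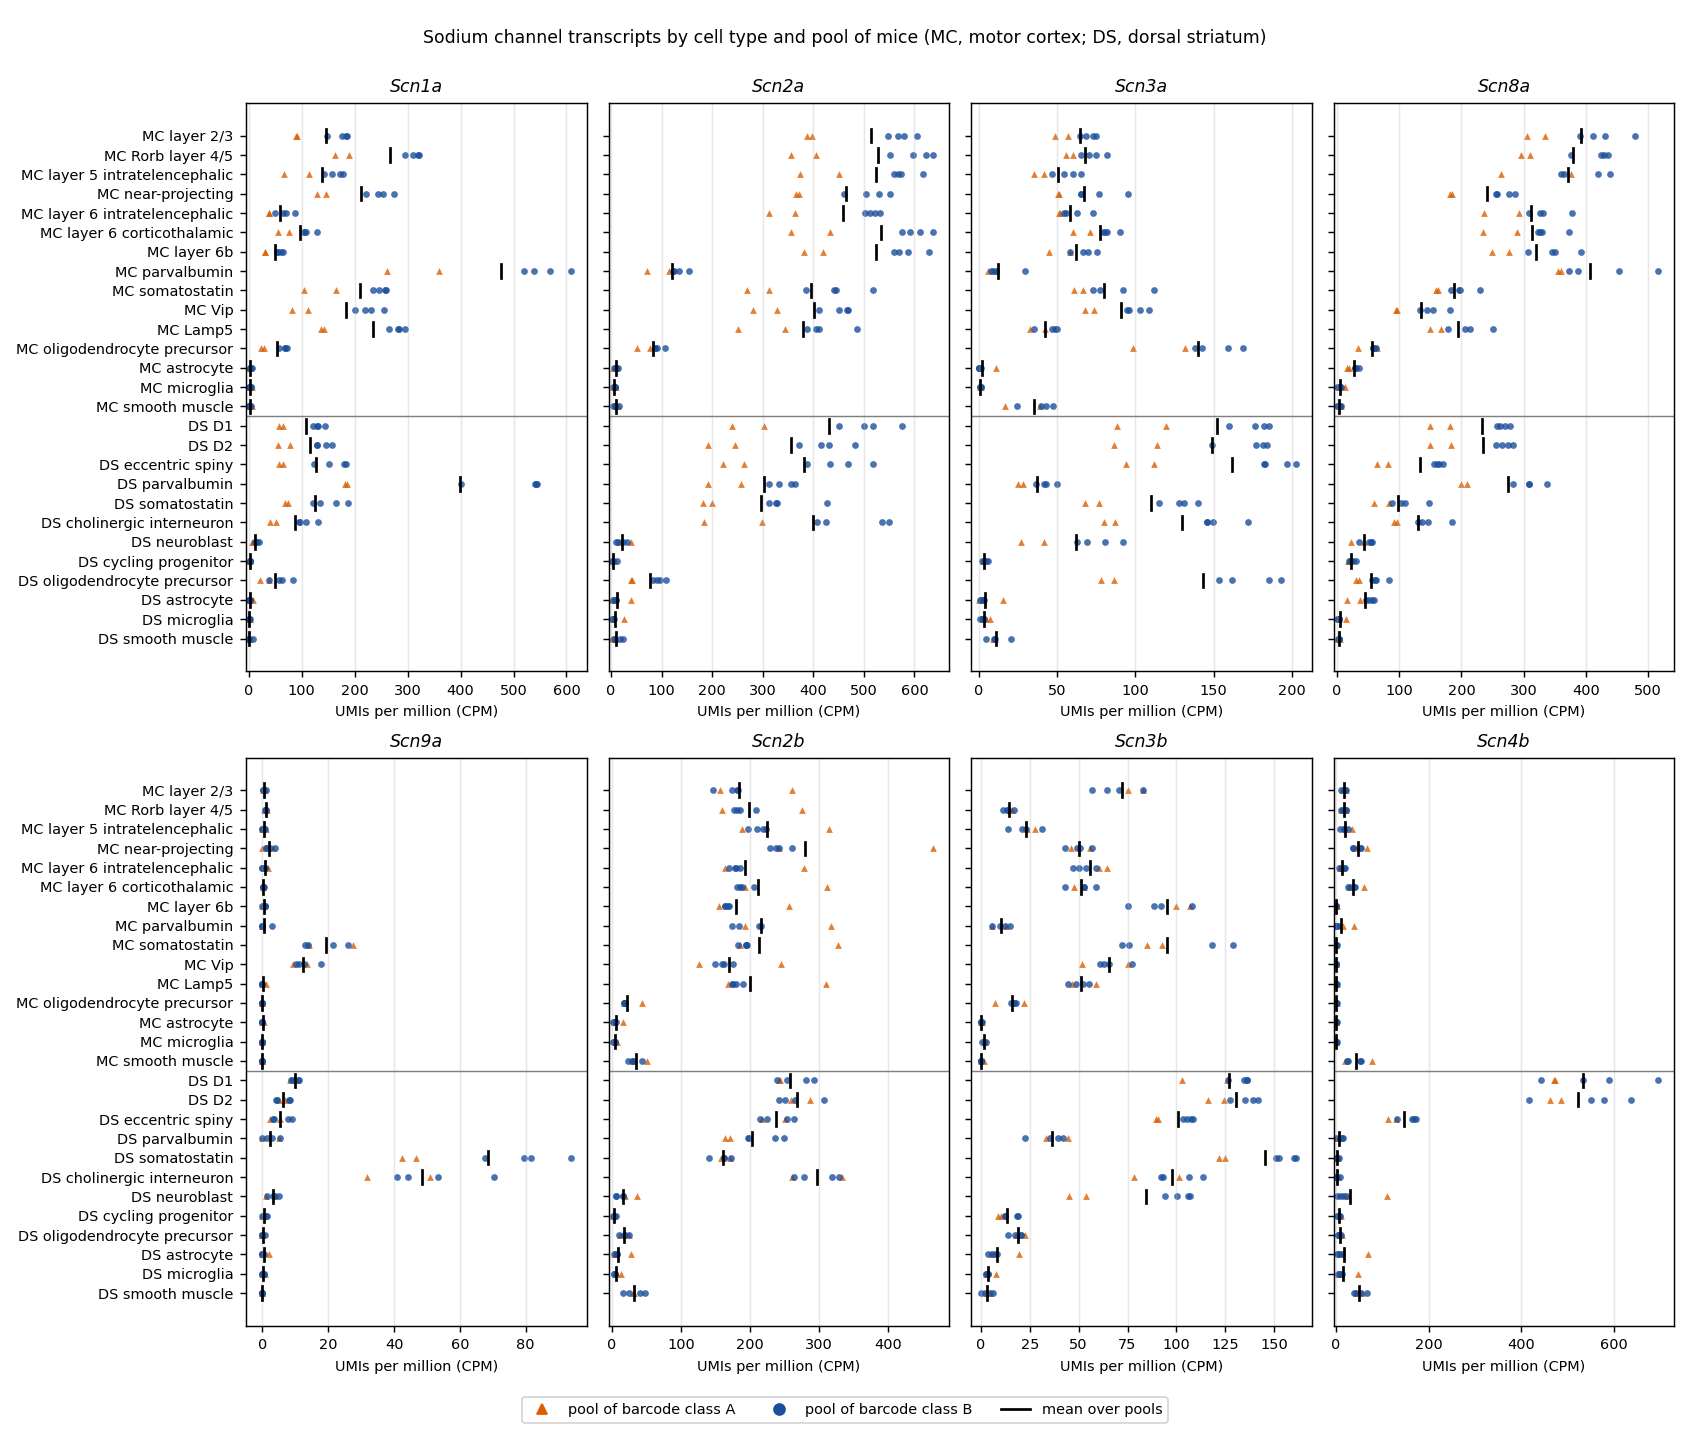
Level of each of the 8 genes (x axis, CPM) in 27 cell types (rows; MC, motor cortex; DS, dorsal striatum), 1 point per pool of 2 mice, triangles for barcode class A and circles for barcode class B, with a black line at the mean. Scn1a peaks in the parvalbumin rows, Scn4b in the D1 and D2 rows (533.9 and 521.5 CPM) and Scn9a in the striatal somatostatin and cholinergic rows, and triangles lie mostly left of the circles for Scn1a and Scn2a.

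Of the types with enough cells to fit, Scn1a was highest in parvalbumin interneurons. In the motor cortex its level ran from 260.4 over a median of 528.5 to 607.7 CPM across 6 pools (mean 476 ± 135), and in the striatum from 181.1 over 470.3 to 544.5 CPM (399 ± 176). The low pools in both regions were those of barcode class A. Rorb layer 4/5 neurons followed at 266 ± 71.2 CPM, then Lamp5 interneurons at 234.4, near-projecting neurons at 211.6, cortical somatostatin interneurons at 211 ± 62.8 and Vip interneurons at 183.3 CPM. D1 and D2 neurons stood at 107.8 and 116 CPM. Among cortical projection neurons the layer 6 types were low, layer 6 corticothalamic at 96.2, layer 6 intratelencephalic at 58.3 and layer 6b at 49.4 CPM. Oligodendrocyte precursors, at 53.3 and 50.4 CPM in cortex and striatum, were near the layer 6 intratelencephalic and layer 6b neurons. Neighbours in this order overlapped in their ranges throughout the neurons.

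Scn2a was ordered otherwise. Its levels were highest in projection neurons, with 534 ± 113 CPM in layer 6 corticothalamic cells (355.9, 582.9 and 636 CPM as lowest, median and highest), 528.2 in Rorb layer 4/5, 523.7 in layer 5 intratelencephalic and 514.1 in layer 2/3 cells. D1 neurons had 431 ± 132 and D2 neurons 356 ± 114 CPM. Of all neurons the cortical parvalbumin interneurons were lowest, with 71.4, 124.2 and 153.5 CPM as lowest, median and highest (120 ± 27.5), and no pool of theirs reached the lowest pool of the next type, striatal somatostatin interneurons (181 CPM). The striatal parvalbumin interneurons were unlike their cortical namesakes, at 191.3, 321.4 and 363 CPM (302 ± 66.3), and near the striatal somatostatin interneurons at 296 ± 91.2 CPM. Oligodendrocyte precursors had 82.9 CPM in cortex and 76.7 CPM in striatum.

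Of the fitted types, Scn8a was highest in cortical parvalbumin interneurons (354.6, 379.7 and 516.3 CPM; 407 ± 64.3), followed by layer 2/3 (391.9), Rorb layer 4/5 (378.5) and layer 5 intratelencephalic neurons (370.6 CPM). It was lowest among neurons in striatal somatostatin (98.9), cholinergic (130.5), eccentric spiny (133.1) and Vip cells (134.4 CPM). In glia, committed oligodendrocyte precursors had 80.5 CPM of it in cortex and 59.3 in striatum, cortical mature oligodendrocytes 49.9 and striatal astrocytes 44.5 CPM.

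Scn3a, the channel gene best known from development, was at the same CPM in oligodendrocyte precursors as in striatal spiny neurons, within the spread of the pools. Eccentric spiny neurons, a further striatal spiny type, had 161.7 CPM, D1 neurons 152 ± 39.5, D2 neurons 148.6, striatal precursors 143 ± 49.3 (78.1, 157.4 and 193.1 as lowest, median and highest) and cortical precursors 140 ± 24.5 CPM (98.5, 140.4 and 169). The ranges of these 5 groups overlapped. Striatal neuroblasts, migrating young neurons, had 62.2 ± 24.4 CPM and committed oligodendrocyte precursors 45.3 in cortex and 36.2 in striatum. Cortical parvalbumin interneurons, at 12.2 ± 8.69 CPM on 30 UMIs in all, were lowest among neurons.

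Scn9a, best known from pain-sensing neurons, was a gene of few central types. Striatal somatostatin interneurons had 42.4, 73.6 and 93.8 CPM as lowest, median and highest (68.6 ± 20.5) and striatal cholinergic interneurons 31.7, 47.5 and 70.4 (48.6 ± 13.2). Neither overlapped the next type, cortical somatostatin interneurons at 13, 17.9 and 27.5 CPM. Vip interneurons had 12.4, D1 neurons 9.81 and D2 neurons 6.18 CPM, and the cortical parvalbumin group held 1 UMI in all. Thinned to 1000 UMIs per cell, 6.85% of striatal and 2.22% of cortical somatostatin cells had a Scn9a UMI, against 0.0339% of striatal microglia (unthinned, 41.9% of the striatal somatostatin cells at a median of 9596 UMIs, and 0.0558% of the microglia at 1948).

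Scn2b was the most even member. Over the neuron types its means ran only from 160.9 ± 11.4 CPM (striatal somatostatin; 140.2, 162.6 and 171.7) to 297 ± 33.4 CPM (cholinergic; 260.8, 298.3 and 333.4). In motor cortex control replicate 1 it was higher than in every other cortical pool, for instance 287.3 against 173.5 to 198.5 CPM in glutamatergic neurons. Oligodendrocyte precursors had 22.3 CPM in cortex and 17.8 in striatum.

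Scn3b was highest in striatal somatostatin interneurons, at 145 ± 17.4 CPM (121.7, 151.6 and 161.2), followed by D2 (130.6) and D1 neurons (127 CPM). Cortical types differed widely: layer 6b neurons had 95.2 and layer 2/3 neurons 72.1 CPM, but layer 5 intratelencephalic neurons 23.3, Rorb layer 4/5 neurons 14.3 and cortical parvalbumin interneurons 10.1 CPM. Neuroblasts were at a neuronal level, 84.3 ± 27.5 CPM in striatum (45.2, 97.2 and 106.8) and 83.6 CPM in 4 cortical pools. Ependymal cells of the striatal dissections had 38.3 ± 11.8 CPM.

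Scn4b marked spiny neurons. D1 neurons had 442.6, 502.6 and 695.4 CPM (534 ± 95.1) and D2 neurons 416.5, 517.5 and 635.7 CPM (522 ± 81.3), while eccentric spiny neurons had 112.8, 147.5 and 171.6 (146 ± 24.8), with no overlap with D1 or D2 above or with smooth muscle, the next type below. Striatal endothelial cells reached 148.3 CPM in 1 pool, late replicate 1. Thinned to 1000 UMIs per cell, 40.0% of D1 and 39.2% of D2 cells had a Scn4b UMI, against 1.05% of striatal and 0.0290% of cortical microglia (unthinned 78.0% and 78.6%, at medians of 5658 and 5238 UMIs, and 1.75% of the striatal microglia). In the fitted cortical types it was lower, with 48.1 ± 12.3 CPM in near-projecting, 37.2 in layer 6 corticothalamic, 20.1 in layer 5 intratelencephalic and 17.4 in layer 2/3 neurons. Cortical somatostatin and Vip interneurons held 1 UMI each in all. Smooth muscle cells had 50.6 ± 10.3 CPM in striatum and 42.2 ± 22.7 CPM in cortex, where microglia had at most 1.55 CPM.

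A further cortical group, marked by Fezf2 and Bcl11b and led by Pvalb among its top genes, held only 68 cells, 3 to 15 per pool, and entered no test. Pooled over all cells it had 548 CPM of Scn8a (exact Poisson 95% interval 500 to 599.4, counting error only), 439.3 of Scn2a (396.5 to 485.6), 362.7 of Scn1a (323.8 to 404.9) and 176.2 of Scn4b (149.5 to 206.3). Scn3b stood at 10.3 (4.708 to 19.55). Scn4b made up 9.44% of the group's sodium channel UMIs. Its level of 176.2 CPM, pooled over cells, stood beside a mean over pools of 20.1 CPM in the layer 5 intratelencephalic group.

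**Figure D2:**
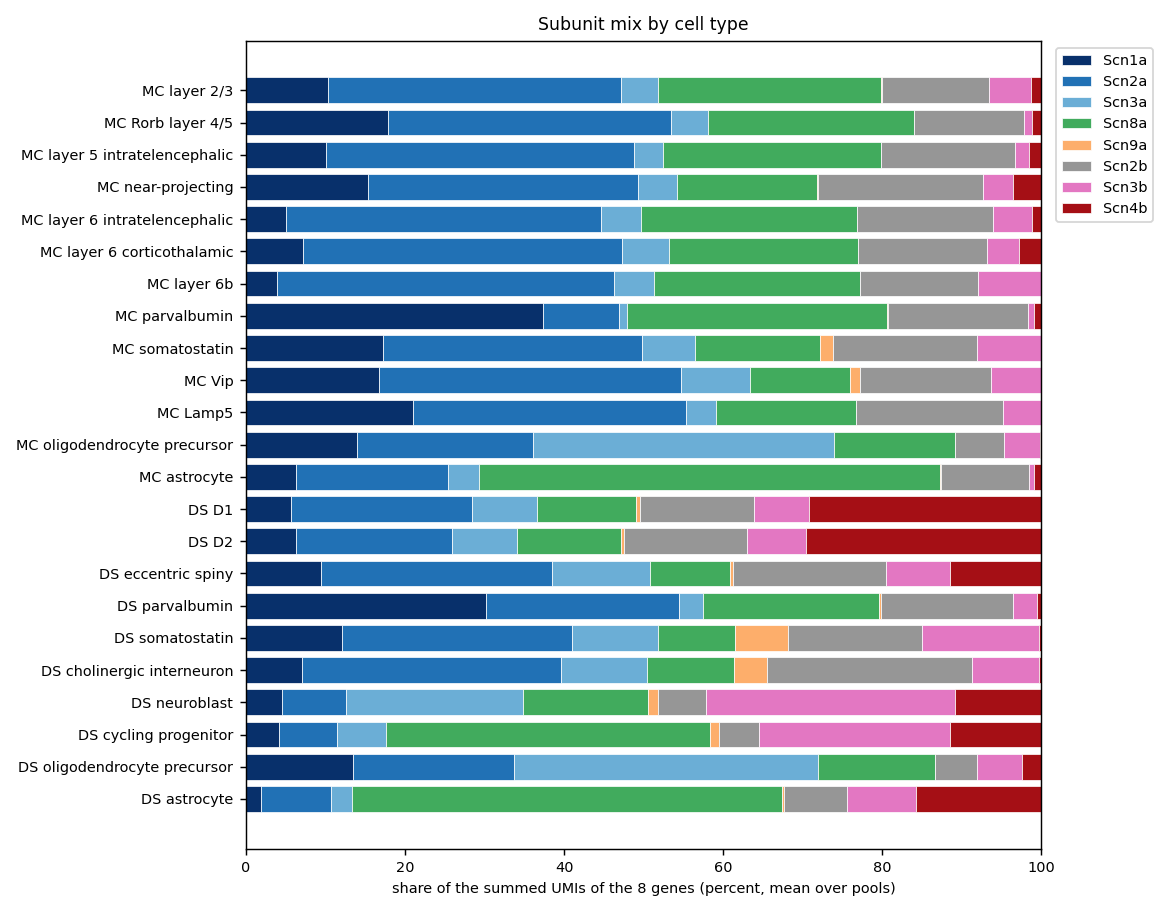
Share of the summed UMIs of the 8 genes taken by each gene (x axis, percent, mean over pools; colours name the genes) in 23 cell types (rows; MC, motor cortex; DS, dorsal striatum). Scn1a and Scn8a fill 37.4% and 32.8% of the cortical parvalbumin bar, Scn4b fills 29.1% and 29.6% of the D1 and D2 bars, and Scn3a fills 37.8% and 38.2% of the cortical and striatal oligodendrocyte precursor bars.

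The mix of subunits, the share of each gene in the summed UMIs of the 8, is free of the difference in total between cell types. In cortical parvalbumin interneurons Scn1a took 37.4% ± 6.6 (SD, n = 6), Scn8a 32.8% ± 4.1 and Scn2a 9.56% ± 1.4, while in glutamatergic neurons these were 9.57% ± 1.3, 25.4% ± 1.0 and 38.5% ± 3.5. Each of these differences went the same way in 6 of 6 pools (exact sign-flip test, two-sided, p = 0.0312 each, the smallest that 6 pools can give). D1 and D2 neurons differed little: Scn4b took 29.1% ± 4.0 and 29.6% ± 3.8, and Scn2a 22.8% ± 3.4 and 19.5% ± 3.4, the last higher in D1 in 6 of 6 pools (exact p = 0.0312). In oligodendrocyte precursors Scn3a took 37.8% ± 1.9 in cortex and 38.2% ± 3.9 in striatum, against 3.95% ± 7.9 and 2.72% ± 2.5 in astrocytes, where Scn8a took 57.9% ± 15 and 54.0% ± 21. In striatal neuroblasts the largest shares were those of Scn3b (31.3% ± 9.9) and Scn3a (22.3% ± 6.7), followed by Scn8a (15.8% ± 2.3). In cycling progenitors they were those of Scn8a (40.8% ± 3.3) and Scn3b (23.9% ± 3.8), followed by Scn4b (11.5% ± 5.5). Of 104 such tests 57 gave an exact p under 0.05, and none passed adjustment over all 104 (smallest adjusted exact p 0.057). With shares of the 5 pore-forming genes alone as the measure, 45 of 65 tests passed (adjusted exact p 0.0451 each), where the measure and the number of tests changed together.

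Differences between cell types of a region were tested per pool with edgeR, a fit across all genes with the pool as a block. Called below means a Benjamini-Hochberg adjusted p under 0.05 over all genes of the fit. Over 13 pairs of types, 80 of 90 tests of members were called, 37 higher and 43 lower, beside 58.1% of all tests of genes in the same fits (28.6% higher and 29.5% lower). With DESeq2 it was 77 of 90 (49.4% of all tests).

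**Figure D3:**
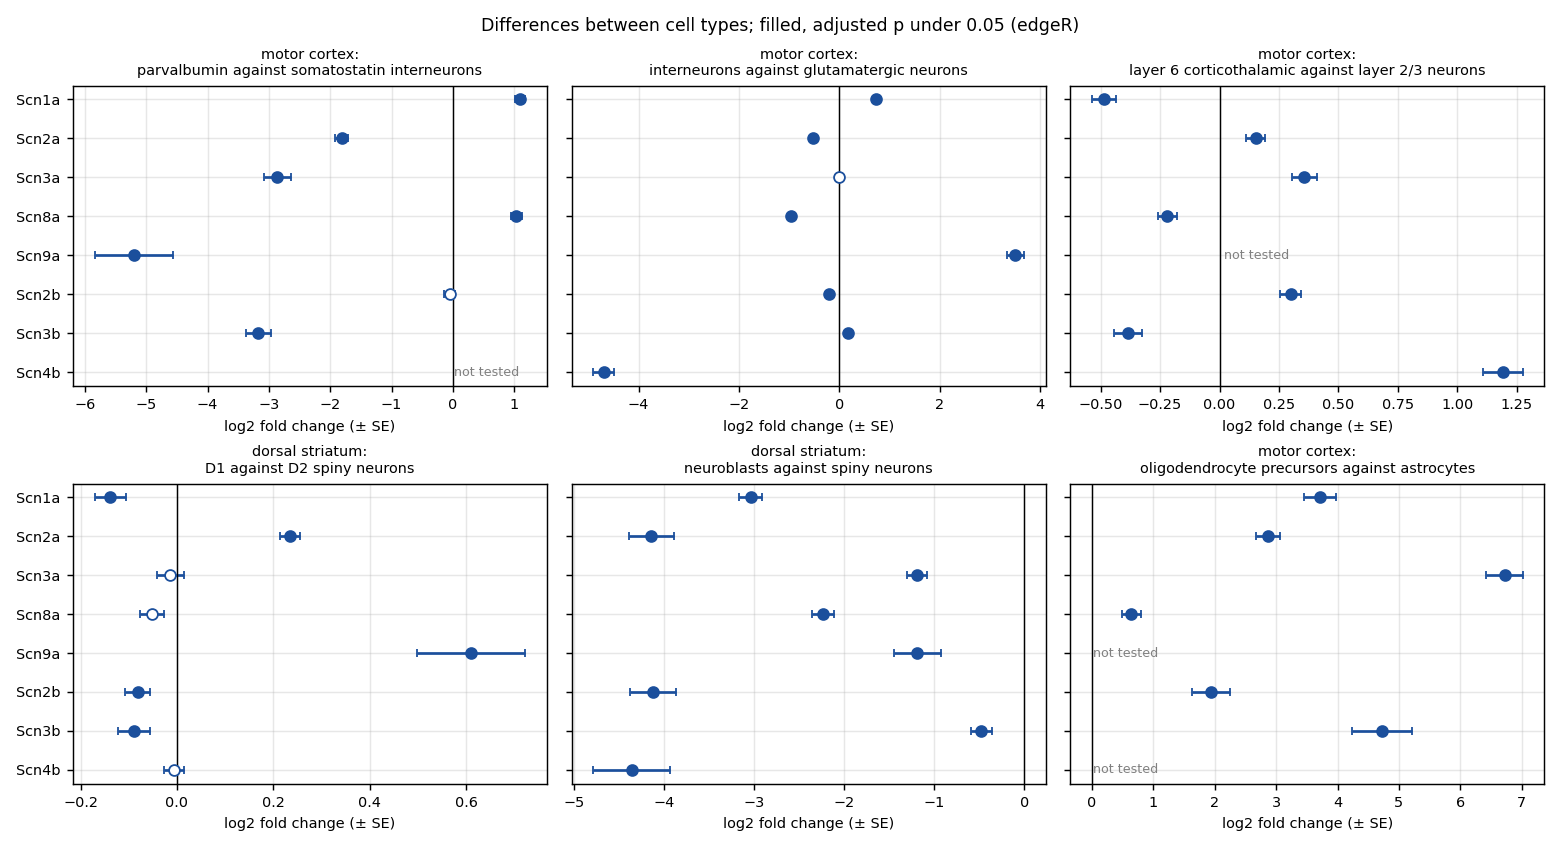
Log2 fold change with its standard error (x axis) of each gene (rows) in 6 of the pairs of cell types, positive where the first-named type is higher, with filled points where the edgeR adjusted p is under 0.05. In the first panel Scn1a and Scn8a lie to the right of 0 (1.10 and 1.04) and Scn2a, Scn3a, Scn9a and Scn3b to the left, and all points of the neuroblast panel lie to the left.

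Cortical parvalbumin interneurons had more Scn1a and Scn8a and less Scn2a, Scn3a, Scn9a and Scn3b than somatostatin interneurons, which target dendrites. In that comparison 36.3% of all genes tested were called and 6 of 7 members. Scn1a was higher by 1.10 ± 0.0852 (log2, SE; edgeR adjusted p = 8.98e-15) and Scn8a by 1.04 ± 0.0901 (3.23e-13). Lower were Scn2a (-1.81 ± 0.102; 1.59e-19), Scn3a (-2.87 ± 0.219) and Scn3b (-3.18 ± 0.203), each without overlap between the groups of pools. Scn9a was called lower on 1 UMI in the parvalbumin and 89 in the somatostatin cells, so that its fitted change is not a bound. Scn2b was the member that was not called, at -0.05 ± 0.0934 (adjusted p = 0.707). Against Vip interneurons, which inhibit other interneurons, 7 of 7 members were called (46.2% of all genes): Scn1a was higher by 1.34 and Scn8a by 1.57, and Scn2a differed by -1.81, Scn3a by -3.06 and Scn3b by -2.59. Scn4b rested on 21 UMIs in 3 of the 6 parvalbumin pools and was not called with DESeq2 (adjusted p = 0.338).

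Against cortical glutamatergic neurons as a whole, 5 of 7 members differed in parvalbumin interneurons (47.3% of all genes). The largest differences were in Scn3a (-2.73 ± 0.2), Scn3b (-2.43 ± 0.209) and Scn2a (-2.28 ± 0.0889), while Scn1a was higher by 1.71 ± 0.0721. Scn8a was at 0.13 ± 0.0708 (adjusted p = 0.117), and was called with DESeq2 (0.24, adjusted p = 0.0173), with other scaling factors (0.24, 0.00171) and without motor cortex early replicate 1 (0.19, 0.0372) or early replicate 2 (0.20, 0.0304). For cortical interneurons taken as 1 class against glutamatergic neurons, 7 of 8 members were called (68.8% of all genes), with Scn9a at 3.51, Scn1a at 0.73, Scn2a at -0.53, Scn8a at -0.96 and Scn4b at -4.69. Scn3b (0.18) lost its call without motor cortex early replicate 2 (adjusted p = 0.0593) and with no filter on low counts. Of the 4379 cells of the class, 1552 were Vip, 1079 Lamp5 and only 275 parvalbumin cells. Parvalbumin cells alone went the same way as the class in Scn1a, Scn2a and Scn4b, but not in Scn3b or Scn8a. Their Scn9a was at 0.485 CPM, against 7.79 in the class and 0.63 in glutamatergic neurons.

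Within the cortical projection neurons, layer 6 corticothalamic neurons, which feed back to the thalamus, had more Scn4b (1.19 ± 0.0845), Scn3a (0.36 ± 0.0529), Scn2b (0.30) and Scn2a (0.15) and less Scn1a (-0.49 ± 0.0498), Scn3b (-0.38) and Scn8a (-0.22) than layer 2/3 neurons. All 7 members tested were called by edgeR, beside 63.5% of all genes.

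D1 and D2 spiny neurons, the heads of the direct and indirect striatal pathways, were close, and 5 of 8 members were called, beside 27.6% of all genes. Scn2a was higher in D1 neurons in 6 of 6 pools, by 0.23 ± 0.0207 (edgeR adjusted p = 1.72e-15). Scn9a was also higher in D1 in 6 of 6 pools, by 0.61 ± 0.113 (1.08e-05), at 9.81 against 6.18 CPM. Scn1a was called lower in D1 (-0.14 ± 0.0328; 0.000569), although its CPM was higher in D1 in 2 of 6 pools. The calls of Scn2b (-0.08) and Scn3b (-0.09) were lost with DESeq2 and in barcode class B alone, and on leaving out any of 4 pools for Scn2b (control 1, early 1, early 2 or late 1; adjusted p 0.0581 to 0.101) and any of 3 for Scn3b (control 2, late 1 or late 2; 0.0734 to 0.319). Scn4b, at 534 against 522 CPM, differed by -0.01 ± 0.0209, with an adjusted p of 0.861. Scn3a was at -0.01 (0.785) and Scn8a at -0.05 (0.123; 0.0457 without early replicate 1). Striatal interneurons against spiny neurons gave 8 of 8 calls (74.2% of all genes), with Scn9a higher by 2.13 ± 0.123, Scn1a by 1.12 ± 0.0564 and Scn4b at -5.94 ± 0.139. The other 5 members were lower by less, from Scn3a at -0.78 to Scn2a at -0.22.

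All 8 members were lower in striatal neuroblasts than in spiny neurons (79.5% of all genes were called, 41.2% lower). Scn3b differed least, by -0.47 ± 0.118 (edgeR adjusted p = 0.0018), then Scn3a and Scn9a at -1.19 each, Scn8a at -2.23 and Scn1a at -3.04. Most reduced were Scn2b (-4.12 ± 0.254), Scn2a (-4.14 ± 0.249) and Scn4b (-4.36 ± 0.424). The Scn4b level of neuroblasts was 2.77 to 25.7 CPM in 5 pools and 109.4 CPM in late replicate 1, where their spiny marker sum was 2679 CPM against 156 to 677 in the others. Without that pool the Scn4b difference was -5.06. Cycling progenitors of the same dissections had less again: 7 of 7 members were lower than in neuroblasts (69.7% of all genes called, 34.8% lower), from Scn8a at -0.92 ± 0.126 to Scn3a at -4.15 ± 0.185, with Scn3b at -2.60 ± 0.128.

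Oligodendrocyte precursors, dividing glia that receive synapses from neurons, differed from other glia in most members. Against astrocytes all 6 members tested in cortex were higher (65.1% of all genes called, 34.1% higher): Scn3a by 6.72 ± 0.297, Scn3b by 4.72 ± 0.49, Scn1a by 3.71 ± 0.268, Scn2a by 2.87 ± 0.194, Scn2b by 1.94 and Scn8a by 0.64. The cortical astrocytes held 5 Scn3a and 3 Scn3b UMIs in all, so that those changes are imprecise. In striatum 6 of 7 were called (59.9%), with Scn3a at 5.46 ± 0.299, Scn1a at 4.47, Scn2a at 2.89, Scn3b at 1.13 and Scn2b at 1.11. There the Scn2b call was lost without early replicate 1 (edgeR adjusted p = 0.0544) or late replicate 2 (0.073). Striatal Scn8a differed by 0.01 ± 0.133 (adjusted p = 0.967). Striatal Scn4b was called lower at -0.96 (adjusted p = 0.0353), but turned to 0.33 with doublets kept, and was not called without late replicate 1 (-0.44, 0.313), whose astrocytes had 69.8 CPM, nor without control replicate 1 (0.0529) or early replicate 1 (0.165).

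Along the oligodendrocyte lineage Scn3a, Scn1a and Scn2a were higher in precursors than in mature cells of both regions. Precursors against mature oligodendrocytes gave 5 of 6 calls in cortex (50.4% of all genes) and 3 of 4 in striatum (53.6%), over 5 pools. Scn3a differed by 4.15 ± 0.317 and 4.42 ± 0.42, Scn1a by 3.17 and 3.75, and Scn2a by 2.05 and 2.33, while cortical Scn3b differed by 3.11 ± 0.605. The mature oligodendrocytes held only 143 UMIs of all members together in cortex (363 cells) and 69 in striatum (236 cells). Their Scn3a was at 6.26 and 4.03 CPM and their Scn1a at 5.27 and 3.42 CPM, so that the sizes of these changes are imprecise. Scn8a was not called in cortex (-0.14 ± 0.25, edgeR adjusted p = 0.68) or striatum (0.82 ± 0.351, 0.0506), and in striatum was called without late replicate 2 (1.37, 0.023). The cortical Scn2b call (1.28, 0.0444) was lost without early 1 (0.215), early 2 (0.0885), late 1 (0.0686) or late 2 (0.074).

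**Figure D4:**
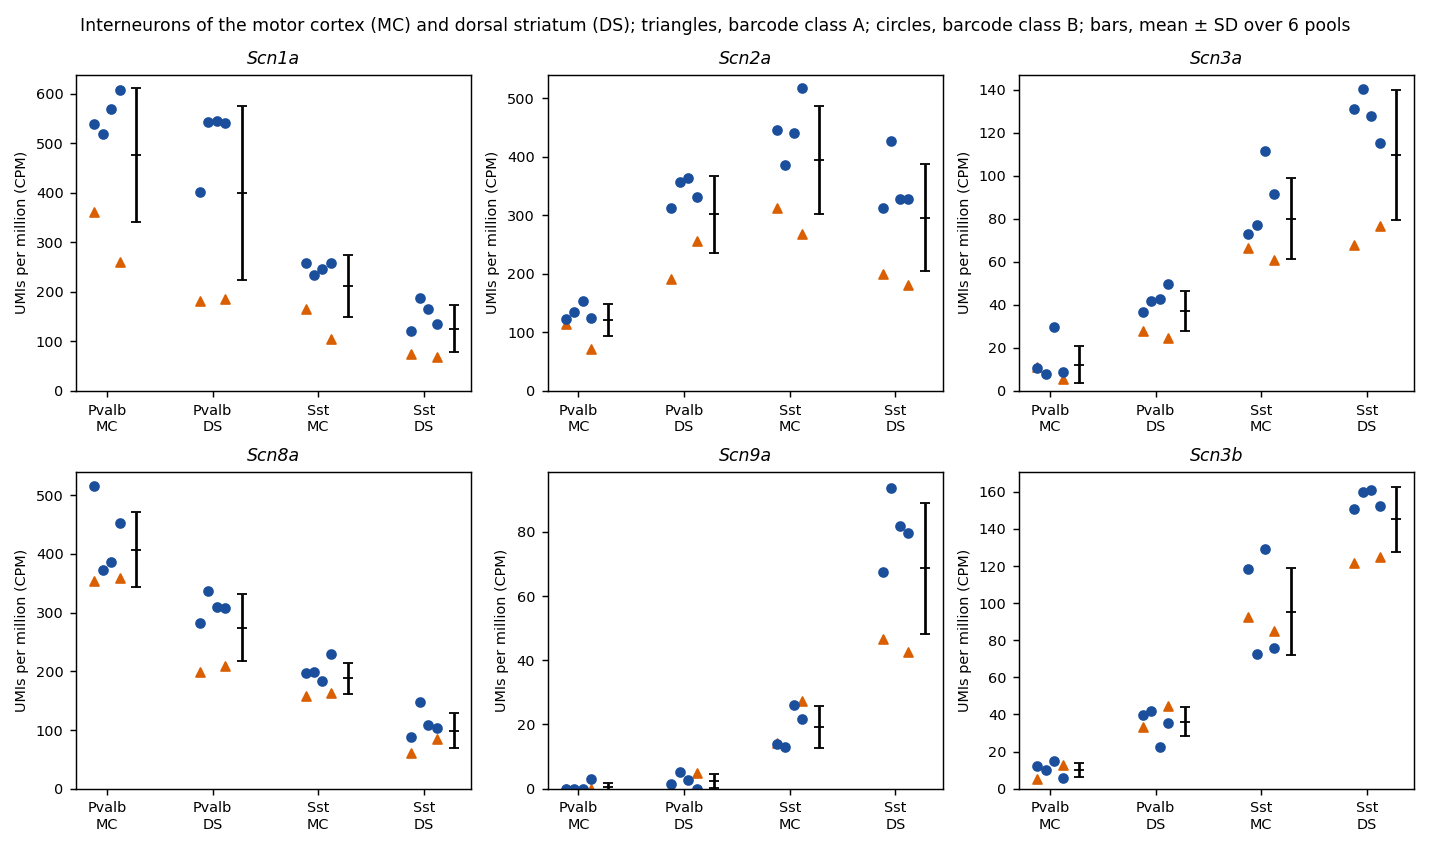
Level of 6 of the genes (y axes, CPM) in parvalbumin (Pvalb) and somatostatin (Sst) interneurons of motor cortex (MC) and dorsal striatum (DS), 1 point per pool, triangles for barcode class A and circles for barcode class B, with the mean and SD over 6 pools beside them. Scn2a is low only in the cortical parvalbumin column (120.4 CPM, against 301.7 in the striatal one), and Scn9a is highest in the striatal somatostatin column.

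Cell types present in both regions were compared between them, with stage and barcode class as covariates. Over 14 fits that held a member, 23 of 57 tests were called, 7 higher in cortex and 16 lower, beside 12.4% of all tests of genes in 15 fits (5.9% higher and 6.51% lower). DESeq2 called 20 (10.7% of all tests). Parvalbumin interneurons (275 cells in cortex, 394 in striatum) gave 4 of 6 calls (18.8% of all genes). Cortical ones had less Scn2a (-1.42 ± 0.128; edgeR adjusted p = 5.81e-11), Scn3a (-1.76 ± 0.292) and Scn3b (-1.74 ± 0.289) and more Scn8a (0.53 ± 0.117; 0.000831). The pools of the 2 regions did not overlap in Scn2a, whose highest cortical pool (153.5 CPM) lay under the lowest striatal one (191.3 CPM). Scn1a was at 0.24 ± 0.124 (0.2) and Scn2b at -0.00 ± 0.139 (0.992). The summed spiny markers were 169.4 to 276.2 CPM in the cortical and 276.5 to 641.5 CPM in the striatal parvalbumin cells, and the part of this in the result was not tested. Somatostatin interneurons (482 and 851 cells) gave 5 of 7 calls (28.2%), with Scn8a (0.80 ± 0.124) and Scn1a (0.62 ± 0.124) higher in cortex and Scn9a (-2.0 ± 0.2), Scn3b (-0.75 ± 0.133) and Scn3a (-0.61 ± 0.131) lower. For Scn2a the somatostatin difference was 0.30 ± 0.118 (0.0597), and it was called without dorsal striatum early replicate 1 (0.0116) or motor cortex early replicate 1 (0.0275).

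The parvalbumin to somatostatin difference itself differed between regions, by a test of cell type and region together that was added after the data had been seen. Groups of like name also differed in their first markers. Pvalb was at 2201 CPM in cortex and 721.5 CPM in striatum, and Sst at 1.897e+04 and 3.734e+04 CPM. The makeup of these groups and region thus cannot be told apart, either here or in the region differences above. For Scn2a, the cortical minus the striatal difference was -1.67 ± 0.128 (edgeR adjusted p = 5.01e-19), beside 22.9% of all genes called. In the striatum the parvalbumin cells had 301.7 and the somatostatin cells 295.7 CPM of Scn2a, with the parvalbumin cells higher in 3 of 6 pools. Scn3a (-1.11 ± 0.29), Scn3b (-0.95 ± 0.292) and Scn1a (-0.39 ± 0.116) also differed, so that 5 of 8 members were called with Scn4b, which was at 1 UMI in cortical somatostatin cells and was not called with DESeq2. Scn8a (-0.26; called at -0.35 without dorsal striatum early replicate 1 or motor cortex control replicate 2, adjusted p 0.0417 and 0.042), Scn9a (-0.32) and Scn2b (-0.21) were not called. The same test of oligodendrocyte precursors against astrocytes (15.4% of all genes) called Scn3b (3.52 ± 0.652) and not Scn3a (1.20 ± 0.828). Scn8a (0.59 ± 0.206) was called too, but not with DESeq2, in barcode class B alone or on leaving out any of 10 of the 12 pools. The 8 neuroblast markers summed to 155.1 to 775.1 CPM in striatal and 72.3 to 135.4 CPM in cortical astrocytes, and their part in the Scn3b difference was not tested.

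The interneuron class as a whole gave 4 of 8 calls by region (32.8% of all genes), all lower in cortex, in Scn4b (-3.14), Scn9a (-2.31 ± 0.157), Scn3b (-0.75) and Scn3a (-0.42). The class holds different types in each region, with 1552 Vip and 1079 Lamp5 cells among 4379 in cortex and no cells named so among 1951 in striatum, so that makeup and region cannot be told apart in it. Cortical glutamatergic neurons had more Scn1a than the 199 glutamatergic cells of 4 striatal pools (2.38 ± 0.17; 127.9 against 26.7 CPM; edgeR adjusted p = 4.79e-08) and more Scn8a (0.76 ± 0.118), in 4 calls of 8 (7.56% of all genes). The cortical class mixes layers whose Scn1a ran from 49.4 CPM in layer 6b to 266 CPM in Rorb layer 4/5 neurons and the striatal cells have no named layer, so that makeup and region cannot be told apart here either. The calls of Scn3b (-0.55) and Scn4b (0.98) there were both lost without dorsal striatum control replicate 2 (adjusted p 0.0963 and 0.166) or late replicate 1 (0.101 and 0.171). Scn3b lost its call also without motor cortex early replicate 2 (0.0632), and Scn4b without dorsal striatum early 2 (0.123), motor cortex early 1 (0.071) or late 1 (0.0577). Oligodendrocyte precursors gave 1 call of 7, Scn4b (-3.77 ± 0.59), beside 0.81% of all genes. Their Scn3a was at -0.04 ± 0.129, Scn1a at 0.03 ± 0.156 and Scn2a at 0.06 ± 0.133. Microglia gave Scn4b too (-5.18 ± 0.722; 1.07% of all genes), on 7 UMIs in cortex and 113 in striatum, and stood at -3.90 without dorsal striatum late replicate 1. Striatal microglia carried spiny markers at 112.6 to 1017 CPM and cortical microglia at 5.75 to 16.8 CPM. In oligodendrocyte precursors the same markers summed to 414.2 to 700.2 CPM in striatum and 535 to 790.3 CPM in cortex. The part of free RNA in the Scn4b differences of non-neuronal cells was not tested. Smooth muscle cells had more Scn3a in cortex (35 ± 11.8 against 10.8 ± 5.21 CPM; 1.67 ± 0.338, adjusted p = 0.0113; 0.886% of all genes), a call that was lost without motor cortex early replicate 1 (0.0762). In neuroblasts (18.7%) Scn3a (-1.37) was called, but not without motor cortex control replicate 2 (-0.76, 0.369), early 1 (-0.92, 0.283) or late 1 (-1.46, 0.0709). Scn4b there (-2.61) was not called without those pools (0.0873 to 0.468) or without dorsal striatum late replicate 1 (-1.40, 0.348), and DESeq2 called neither. In astrocytes the Scn8a call (-0.66; 29.1%) was lost without dorsal striatum control replicate 2 (0.0519).

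Training stage gave no call of a member. Over the 3 comparisons of stages, in 111 fits of 1 cell type and 1 comparison that held a member, 0 of 585 tests passed with edgeR (0.0324% of all tests of genes did) and 0 with DESeq2 (0.00794%), while 41 had an unadjusted p under 0.05, 7.01% against 4.71% of all genes. In simulated data with 2 pools a group, 2% of genes changed 2-fold and 90.4% of genes changed 4-fold were recovered in glutamatergic neurons. The spread between pools was set there to a dispersion of 0.05 for every gene, not estimated from these data. At that spread a change of 2-fold was mostly missed, and the share that the real fits would recover was not tested. Some fits with a pool left out gave calls of members. Each such fit leaves a stage with 1 pool, so that only changes are given for them below. Early and late share their control pools. In striatal spiny neurons Scn4b stood at 412 and 586 CPM in the control pools, 544.2 and 490.7 in the early and 424.1 and 379 in the late ones, and Scn1a at 69.3 and 127.5, 152.8 and 141.1, and 56 and 127.7 CPM. The low Scn1a pools of the control and late stages are those of barcode class A, which has no early pool, and over spiny neurons Scn1a was at 62.6 CPM in class A and 137 in class B. For Scn4b the late pools lay under both early pools and overlapped the controls. The lowest p in cortical neurons was for Scn4b, which stood in glutamatergic neurons at 31.0 and 25.9 CPM in controls, 25.1 and 21.7 in early and 17.5 and 17.1 in late pools. Its late pools lay under all control pools, at -0.69 ± 0.143 (unadjusted p = 0.00192, edgeR adjusted p = 0.848). It was called with no filter on low counts (adjusted p = 0.00572) and with each library as a unit (0.0118), where the 2 libraries of a pool share their mice. In layer 6 corticothalamic neurons it was at -0.84 ± 0.187 (0.862), and at -1.03 without motor cortex late replicate 2. In striatal neuroblasts early against control Scn2b was at 1.74 ± 0.44 (adjusted p = 0.236) and Scn4b at 2.02 ± 0.581 (0.412). That Scn4b value was 4.70 without dorsal striatum control replicate 2, 2.20 without early replicate 1 and 1.18 without late replicate 1. By pool Scn4b there stood at 25.7 and 8.64 CPM in control, 15.4 and 22.4 in early and 109.4 and 2.77 in late pools. Both early pools thus lay between the control pools. They are of barcode class B, so that the covariate of barcode class rests on the control and late pools, and its part was not tested.

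Hemispheres were compared within the trained pools. None of 180 tests of members passed with edgeR (0.0277% of all tests of genes did) or DESeq2 (0.00211%), and 11 (6.11%, against 4.48% of all genes) had an unadjusted p under 0.05. In glutamatergic neurons Scn2a was at -0.01 ± 0.0355 and Scn8a at -0.00 ± 0.0361 contralateral minus ipsilateral, and in spiny neurons Scn4b was at -0.03 ± 0.0604. Of the 11, Scn8a in striatal interneurons had the lowest p, with a change of -0.32 ± 0.096 (edgeR adjusted p = 0.781). Scn1a in spiny neurons, another of them, was at -0.12 ± 0.0592.

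Cells with a UMI of the reporter were compared with the rest of their class. Such cells made up 19.3% of cortical glutamatergic and 18.9% of striatal spiny neurons, against 5.86% and 5.55% of microglia of the same regions, which had fewer UMIs (medians over cells of 7390 and 4310 against 1820 in both). Thinned to 1000 UMIs per cell the shares were 4.31% and 10.2%, against 3.08% and 2.53% in microglia. Endothelial cells stood above both neuron classes, at 27.1% in cortex and 27.3% in striatum, or 17.1% and 15.4% thinned. Neither neuron class thus lay above every other class, and how many positive cells carry free RNA was not tested. In cortical glutamatergic neurons 5 of 7 members were lower in reporter-positive cells (7.38% of all genes called, 3.15% lower): Scn4b at -0.45 ± 0.0685 (edgeR adjusted p = 2.41e-06), Scn1a at -0.30 ± 0.0322 (2.77e-10), Scn2b at -0.10, Scn8a at -0.08 and Scn2a at -0.07. Positive cells were deeper in each pool, for example at a median of 7697 against 5438 UMIs, and with cells thinned to 1000 UMIs no member was called (Scn1a at -0.21, adjusted p = 0.147). Cells were sorted by reporter before thinning. The thinned fit therefore keeps the choice of deeper cells and holds fewer UMIs, so that it cannot tell the part of depth. With at least 2 reporter UMIs asked for, 4 of the 5 were not called, Scn1a at -0.11 (adjusted p 0.267), Scn4b at -0.30 (0.101), Scn2b at -0.07 (0.539) and Scn8a at -0.01 (0.957), while Scn2a was (-0.13, 0.0114) and Scn3a was called in addition (-0.26, 0.00321). Their layers differed too: near-projecting neurons made up 2.72% of positive and 7.34% of negative cells, lower in 6 of 6 pools, and layer 6 intratelencephalic neurons 16.9% and 11.7%, higher in 6 of 6. Layer 2/3 (21.4% and 17.5%) and layer 5 intratelencephalic neurons (3.95% and 2.49%) were also higher in 6 of 6, and Rorb layer 4/5 neurons lower (15.5% and 17.9%). Within layers Scn1a was lower in positive cells in 6 of 6 pools in layer 2/3 (127.6 against 152.6 CPM), layer 5 intratelencephalic (113.4 against 152.1) and layer 6 corticothalamic neurons (80.4 against 100.5). It was lower in 5 of 6 in layer 6 intratelencephalic (50.9 against 61.4) and layer 6b neurons (47.8 against 48.7), and in 3 of 6 in Rorb layer 4/5 (253.8 against 268.6) and near-projecting neurons (195.9 against 213.8). In the few Fezf2 Bcl11b cells it was at 408.4 against 395 CPM, lower in 3 pools. The part of depth in this was not tested. In striatal spiny neurons 0 of 8 members were called with edgeR (0.402% of all genes), 1 at an unadjusted p under 0.05. With at least 2 reporter UMIs Scn4b turned in sign and was called (0.12, adjusted p = 0.00864).

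Other sodium channel genes and channel partners, in lists chosen by known function, were read in the same fits. Of the other sodium channel genes, 3 of 3 tested were higher in striatal interneurons than spiny neurons (median 0.81; 74.2% of all genes called), with Scn7a, a gene of sodium sensing, at 6.51 ± 0.424 (edgeR adjusted p = 6.75e-16). In cortical interneurons against glutamatergic neurons 2 of 4 tested were higher and 2 lower (68.8% of all genes called). Of the sodium leak channel complex, which sets resting excitability, 4 of 4 genes were higher in oligodendrocyte precursors than astrocytes in both regions, beside 65.1% and 59.9% of all genes called (median 4.64 in cortex and 2.70 in striatum, against medians of 0.03 and -0.06 over all genes), with Fam155a at 5.34 and Nalcn at 3.52 in striatum. Of the intracellular fibroblast growth factors, which bind the channel's tail, 3 of 4 were higher and 1 lower in parvalbumin than glutamatergic neurons (47.3% of all genes called): Fgf11 at 3.65, Fgf12 at 0.90 and Fgf14 at -1.96. Of 8 anchors of the axon initial segment and node, 8 were lower in cycling progenitors than neuroblasts (34.8% of all genes were lower; Ank3, the master anchor, at -3.62) and 6 lower in neuroblasts than spiny neurons (41.2% lower; Sptbn4 at -3.90, Cntn1 at -3.18). In cortical precursors against mature oligodendrocytes 3 anchors were lower, Nfasc (-5.46), Cntn2 (-4.39) and Ank3 (-1.95), and 3 higher, Cntn1 (1.46), Nrcam (1.61) and Sptbn4 (2.17), beside 50.4% of all genes called. Of 7 channel regulators tested, 5 were higher and 2 lower in neuroblasts than spiny neurons, where 79.5% of all genes were called. No list had a call by stage or hemisphere with edgeR.

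Genes of like pattern were found by Pearson's r of the mean log2 CPM over 42 cell types among 11484 genes, as a description, since cell types share pools and libraries. Nearest to Scn1a were Nap1l2 (0.961), Atp2b3 (0.960) and Clstn3 (0.960), and to Scn2a Paqr9 (0.974), Eef1a2 (0.972) and Atp2b3 (0.968). For Scn8a they were Scg5 (0.951), Pclo (0.946) and Hook1 (0.945), and for Scn2b Tspyl1 (0.944), Nptn (0.937) and Cntnap1 (0.930). Scn3a was nearest to Smarca1 (0.906), Rgs17 (0.901) and Gpr27 (0.894), and Scn3b to Usp29 (0.900) and Dbndd1 (0.887). The 2 members of few cell types had looser neighbours: Scn4b had Lrrc10b (0.809), Ppp1r1b (0.797), itself a marker of spiny neurons, and Asb11 (0.784), and Scn9a had Tacr1 (0.794), Zar1 (0.789) and Hcn4 (0.766).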

How the data were processed

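The deposited matrices held raw UMI counts per gene and cell barcode. Per the submitters' processing notes the authors used Cell Ranger 3.1.0 and the build GRCm38 (mm10). For dorsal striatum control replicate 1 only the left library was used, and the other was not analysed here. Members and lists were chosen with earlier results of these data known.

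Cells under 500 genes or 1000 UMIs, or above 20% mitochondrial UMIs, were dropped, with 5103 presumed doublets (called in scanpy 1.11.5, 0.8% per 1000 cells) as well. Clustering (2000 variable genes, 40 components, 20 neighbours; leidenalg 0.10.2) left out the genes reported on. Counts were summed per pool and type (at least 20 cells, at least 3 pools) and fitted with edgeR 4.0.16 (TMM, filterByExpr, quasi-likelihood, Benjamini-Hochberg) or, as an alternative, DESeq2 1.42.0, in R 4.3.3. Shares were tested with an exact sign-flip test. Code was tested on data simulated with a set spread between pools that was not estimated from these data. Of 2-fold and 4-fold changes between parvalbumin and somatostatin interneurons, 57.9% and 100% were recovered. Named genes were all 8 members, at most 3 genes of each partner list by p, and the 3 genes of most like pattern. Some genes that this rule names are not reported here. Pools are separate animals. The alternatives covered scaling, filters, doublets, barcode class, the unit of summing and each pool left out.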

Additional observations from a re-analysis of the deposited data

Results flagged for a closer look

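The region difference of the parvalbumin to somatostatin difference was picked out for 5 members, each as cortex minus striatum on the log2 scale with edgeR: Scn2a -1.67 ± 0.128 (adjusted p = 5.01e-19), Scn3a -1.11 ± 0.29 (0.00197), Scn3b -0.95 ± 0.292 (0.01), Scn1a -0.39 ± 0.116 (0.00844) and Scn4b 3.06 ± 1.07 (0.0279). The Scn4b value was not called with DESeq2 (0.14), without dorsal striatum late replicate 1 (0.0529) or without motor cortex control replicate 2 (0.0537). For oligodendrocyte precursors against astrocytes the region difference was picked out for Scn3b at 3.52 ± 0.652 (0.000103) and for Scn8a at 0.59 ± 0.206 (0.0444). The Scn8a value was not called with DESeq2 (0.108), in barcode class B alone (0.0566), or on leaving out any of 10 of the 12 pools. Cortical astrocytes held 3 Scn3b UMIs and striatal ones 48.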

How the results depend on the processing

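Differences between cell types gave 77 to 83 calls of members under the other settings of scaling, filters and tools and 78 to 80 with a pool left out, against 80. Region differences gave 19 to 33 against 23 (33 with no filter on low counts, 32 with doublets kept, 21 to 28 with a pool left out), and the test of both together 5 to 7 against 7. The counts in this section take in every member tested under a setting, also members that the main fits did not test. Of the 57 region tests of the main fits, all 57 kept their state with no filter. With doublets kept, 2 of them gained and 3 lost a call. The share of all genes called under each setting is not given here. Hemisphere calls were 0 with DESeq2, with RLE factors and with each trained pool left out. Stage calls, 0 as reported, became 8 with counts per library, 6 with no filter and 2 with the strict cell filter, and ranged from 0 to 14 with a pool left out (14 without dorsal striatum control replicate 2, 11 without late replicate 2). Reporter calls fell from 5 to 3 with at least 2 reporter UMIs, of which only cortical Scn2a was among the 5 (the others were cortical Scn3a and striatal Scn4b), and to 0 with thinned cells, and ranged from 2 to 5 with a pool left out (2 without motor cortex late replicate 2). Subunit mix calls were 0 of 104 tests and 45 of 65 with shares of the pore-forming members, the measure and the number of tests changing together. The replicate block in place of barcode class gave 0 stage calls, where the numbers only name pools and pair no animals. Reversed in sign were Scn4b in striatal precursors against astrocytes with doublets kept (0.33) and Scn4b in reporter-positive spiny neurons with at least 2 reporter UMIs (0.12, adjusted p = 0.00864). The cause was not tested. The planned pair of Fezf2 Bcl11b layer 5 and layer 2/3 neurons was not run, with too few cells per pool.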

Other observations

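Outside neurons and their precursors, beta subunit genes were counted in vessel-associated cells, given here as shares of the UMIs of the 8 genes. Scn2b took 59.2% in cortical and 55.4% in striatal pericytes (31.1 ± 12.1 and 44.9 ± 18.4 CPM), and 57% and 51.1% in fibroblasts (60 ± 43.6 and 81.8 ± 37.2 CPM). These shares rest on few UMIs of the 8 genes, 148 in cortical and 126 in striatal pericytes and 63 and 111 in fibroblasts. Neuron markers were counted in the same cells: the spiny markers reached 3193 CPM in 1 pool of striatal pericytes and 2908 CPM in 1 of striatal fibroblasts, and the glutamatergic markers 1469 CPM in 1 of cortical fibroblasts. The part of neuronal RNA in these levels was not tested. Region differences of Scn2b in pericytes (-0.43 ± 0.283) and fibroblasts (-0.77 ± 0.442) were not called with edgeR (adjusted p = 0.82 and 0.484). In smooth muscle Scn4b took 46.7% in striatum and 31.1% in cortex, and the region difference was -0.34 ± 0.262 (adjusted p = 0.783). Scn3b took 46.9% of the sodium channel UMIs of striatal ependymal cells.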
